A study of Mus musculus with 8 samples.

Results

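Of the 23284 gene rows in the deposited table, 10 hold the Wnt pathway genes described here: the feedback targets Axin2 and Sp5, the destruction complex scaffolds Axin1 and Apc, the effector Ctnnb1 (beta-catenin), the receptor Fzd7, and the Tcf/Lef factors Lef1, Tcf7, Tcf7l1 and Tcf7l2. They were chosen by gene name, with earlier results of these data known, and all 10 were found. RNA was sequenced from P19, a mouse embryonal carcinoma line, transfected with an siRNA against Upf3a or with a control siRNA. Actinomycin D, which blocks transcription, was added 1 day later to both arms, and RNA was taken 0, 15, 105 and 225 min after it. Upf3a encodes a factor of nonsense-mediated mRNA decay, and the design asks how its loss changes transcript stability. The labels list 2 cultures for each of the 8 conditions, but the table gives them a single FPKM per gene. The n given below is therefore a number of time points, and no test has cultures as replicates.

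Wnt proteins bind Frizzled receptors and Lrp5/6 co-receptors at the cell surface. Without them, a complex of Axin, Apc and the kinases Gsk3 and casein kinase 1 marks beta-catenin for destruction. With them, beta-catenin accumulates, enters the nucleus and joins Tcf/Lef factors on target genes, among which Axin2 and Sp5 limit the signal again. In early embryonic cells the pathway acts on self-renewal and on entry into mesoderm.

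Upf3a itself stood at 5.27, 4.52, 4.76 and 4.16 FPKM (fragments scaled to transcript length and library size) at 0, 15, 105 and 225 min in knockdown cells, against 13.6, 14.0, 14.0 and 15.0 FPKM in control cells. The arms did not overlap at any time. FPKM totals per condition ran from 537350 to 923333, and read depth is unknown. The 8 P19 cell markers summed to between 2550 and 4275 FPKM in the knockdown conditions and between 2075 and 3438 FPKM in the control conditions, and 7 of them were called higher in knockdown cells. For these and the marker counts that follow, 26.1% of all tested genes were called higher and 22.3% lower, 48.4% in all. The 8 fibroblast markers summed to 9.58 to 13.3 FPKM in knockdown cells against 11.4 to 16.5 FPKM in control cells, with 1 of 3 tested called lower. The 8 neural markers summed to 49.6 to 65.5 FPKM in knockdown cells against 57.7 to 79.7 FPKM in control cells, with 2 of 4 tested called lower. The 8 endoderm markers summed to 5.80 to 8.90 FPKM in knockdown cells against 6.32 to 9.38 FPKM in control cells, with none of 3 tested called. In bulk RNA, fewer cells of a type and less RNA per cell cannot be told apart, and what part these markers play in the results below was not tested.

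Before decay set in, the members spanned a wide range of levels. At 0 min Ctnnb1 was the most abundant at 267 FPKM in knockdown cells and 236 FPKM in control cells. Tcf7l1, Tcf7, Fzd7 and Axin1 followed, between 27.6 and 46.5 FPKM in knockdown cells and between 24.3 and 41.5 FPKM in control cells. Then came Apc, Lef1, Axin2 and Tcf7l2, between 6.23 and 15.3 FPKM in knockdown cells and between 5.79 and 14.8 FPKM in control cells. Sp5 was lowest, at 1.40 FPKM in knockdown cells and 1.09 FPKM in control cells. The confidence limits that the authors deposited with each FPKM separated Ctnnb1 from its neighbour at the top and Sp5 from its neighbour at the bottom in both arms. In between, they overlapped for each pair of neighbours except Axin1 and Apc in knockdown cells.

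**Figure D1:**
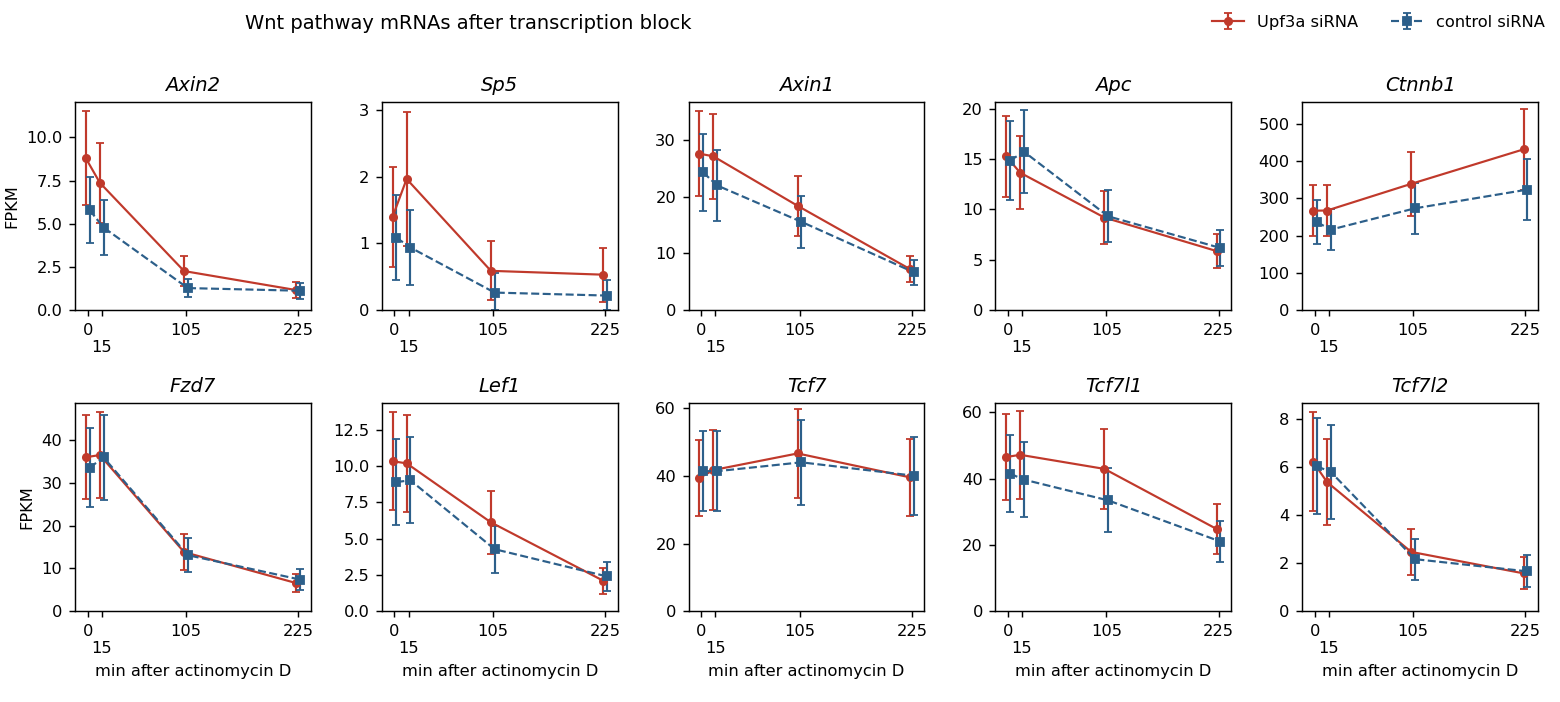
FPKM of the 10 genes (y axes, each from 0) against minutes after actinomycin D (x axes) in the Upf3a siRNA arm (circles) and the control siRNA arm (squares), with bars for the limits deposited by the authors. Axin2, Fzd7, Lef1 and Tcf7l2 fell steeply in both arms, Tcf7 stayed between 39.4 and 46.6 FPKM in all 8 conditions, and Ctnnb1 ended at 431 FPKM in the Upf3a siRNA arm and 323 FPKM in the control siRNA arm.

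Of the 9 members with a mean FPKM of 1 or more, which were the ones tested, 7 fell relative to the bulk of mRNA after the block, 1 gained and 1 did not pass the test. Among all tested genes 38.6% were called as falling and 42.7% as gaining, 81.3% in all. The member that gained, Ctnnb1, had a slope of -0.028 after quantile normalization and -0.13 when scaled to ribosomal protein genes. In level, 4 of the 9 (Axin2, Ctnnb1, Tcf7l1 and Axin1) were higher in knockdown cells and none was lower, with differences of 0.20 to 0.40 on the log2(FPKM + 1) scale. None of the 9 passed the test for a different rate of loss between arms. The level call was made for 26.1% of all 11452 tested genes in the upward and for 22.3% in the downward direction, 48.4% in all (limma, Benjamini-Hochberg adjusted p below 0.05). The 4 of 9 members called higher are to be read against that share, and the median difference of the 9, 0.16, against 0.0046 over all tested genes. Without any test, 5 of the 10 members (these 4 and Sp5) were higher in knockdown cells at each of the 4 times, as were 31.8% of tested genes.

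Axin2, the negative feedback scaffold that is induced by the pathway it inhibits, stood at 8.80, 7.37, 2.26 and 1.16 FPKM at 0, 15, 105 and 225 min in knockdown cells, against 5.79, 4.78, 1.28 and 1.13 FPKM in control cells. Knockdown cells were higher at the first 3 times, and the arms met at the last. The log2 differences were 0.53, 0.53, 0.52 and 0.025 in order of time. Over the 4 times the difference averaged 0.40 ± 0.09 (SE, n = 4 time points), which is 1.32-fold in FPKM + 1. The limma adjusted p was 0.0088, and the sign was the same at all 4 times. In FPKM itself the ratios were 1.52, 1.54, 1.77 and 1.03 in order of time. The deposited limits of the arms overlapped at each time.

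Sp5, a zinc finger factor and direct Wnt target, had 1.40, 1.97, 0.590 and 0.532 FPKM in knockdown cells, against 1.09, 0.939, 0.264 and 0.219 FPKM in control cells. It was higher in knockdown cells at every time, by 1.29-, 2.09-, 2.24- and 2.43-fold in order of time. Its mean of 0.875 FPKM lay under the filter, so that it was not tested with the others. When no filter was applied its difference was 0.37 (limma adjusted p = 0.023). Its deposited limits overlapped between arms at each time, and its lower limit was listed at 0 in control cells at 105 and 225 min.

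The promoters of the feedback targets and of Fzd7 are shown with a search for words that Tcf/Lef factors can bind. RefSeq sequences on GRCm38.p6, from 250 bases before to 50 after the start site, were searched on both strands for CTTTGAT and CTTTGTT, and matches are in capitals (a minus-strand CTTTGTT reads AACAAAG here). The start of a match is counted from the start site.
Axin2, chr11:108920099-108920398, plus strand: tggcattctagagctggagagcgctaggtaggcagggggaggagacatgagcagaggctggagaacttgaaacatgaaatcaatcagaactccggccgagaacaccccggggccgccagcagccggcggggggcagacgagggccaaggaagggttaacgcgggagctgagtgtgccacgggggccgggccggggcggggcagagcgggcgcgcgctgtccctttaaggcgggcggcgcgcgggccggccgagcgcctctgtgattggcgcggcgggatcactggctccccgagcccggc
Sp5, chr2:70474673-70474972, plus strand: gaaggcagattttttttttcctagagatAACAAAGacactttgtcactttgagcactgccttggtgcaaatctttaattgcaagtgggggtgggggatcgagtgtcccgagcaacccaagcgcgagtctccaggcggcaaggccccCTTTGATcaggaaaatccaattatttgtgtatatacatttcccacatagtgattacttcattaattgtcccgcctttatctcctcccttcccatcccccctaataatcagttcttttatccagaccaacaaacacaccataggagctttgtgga
Fzd7, chr1:59481897-59482196, plus strand: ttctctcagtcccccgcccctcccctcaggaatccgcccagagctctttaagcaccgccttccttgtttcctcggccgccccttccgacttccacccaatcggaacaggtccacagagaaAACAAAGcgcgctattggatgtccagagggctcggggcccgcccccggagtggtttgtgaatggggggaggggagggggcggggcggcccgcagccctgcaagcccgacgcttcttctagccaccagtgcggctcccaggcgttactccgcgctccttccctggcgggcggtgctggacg
Sp5 held CTTTGTT on the minus strand 222 bases before the start site and CTTTGAT on the plus strand 104 bases before it. Fzd7 held CTTTGTT on the minus strand 130 bases before the start site, and the Axin2 window held neither word. Of 14 promoter windows found for 8 of the members, 3 held a word, the other being a Tcf7l2 window with CTTTGTT 14 bases before its start site. Of all 32851 RefSeq promoters of this length, 9.3% held one of the words, 3.7% CTTTGAT and 5.9% CTTTGTT. Among promoters of tested genes 6.0% held one. Binding was not measured.

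Axin1, the constitutive scaffold of the destruction complex, stood at 27.6, 27.1, 18.4 and 7.23 FPKM in knockdown cells, against 24.3, 22.0, 15.6 and 6.68 FPKM in control cells. It was higher in knockdown cells at all 4 times, with limits that overlapped. The difference was 0.20 ± 0.05 (SE), or 1.15-fold in FPKM + 1 (limma adjusted p = 0.011). It did not pass without 15 min, at 0.17 (limma adjusted p = 0.055).

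Apc, which binds beta-catenin in the same complex, had 15.3, 13.6, 9.20 and 5.87 FPKM in knockdown cells, against 14.8, 15.7, 9.32 and 6.17 FPKM in control cells. The arms crossed between 0 and 15 min. Its difference of -0.059 had a 95% interval of -0.18 to 0.058, so that the members of the complex did not show one pattern.

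Ctnnb1, the co-activator that the complex destroys, had 267, 267, 338 and 431 FPKM in knockdown cells, against 236, 216, 273 and 323 FPKM in control cells. Both arms were highest at 225 min. The knockdown level was higher at all 4 times, by 1.13-, 1.24-, 1.24- and 1.33-fold in order of time. The difference was 0.30 ± 0.05 (SE; limma adjusted p = 0.0025), and the deposited limits overlapped at each time. Its exons overlap those of Ulk4 on the opposite strand, and nothing in the labels states the strandedness of the libraries.

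Fzd7, a Frizzled receptor of early embryonic cells, had 36.0, 36.5, 13.8 and 6.57 FPKM in knockdown cells, against 33.5, 35.9, 13.1 and 7.41 FPKM in control cells. The arms lay close together throughout. Its difference was 0.010, with a 95% interval of -0.11 to 0.13.

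Of the Tcf/Lef factors, Tcf7l1 (Tcf3), the member known in embryonic stem cells mainly as a repressor, had 46.5, 47.1, 42.9 and 24.8 FPKM in knockdown cells, against 41.5, 39.7, 33.4 and 21.0 FPKM in control cells. It was higher in knockdown cells at all 4 times, by 0.16 to 0.35 on the log2 scale. The difference of 0.25 ± 0.05 (SE) was 1.19-fold in FPKM + 1, with a limma adjusted p of 0.0043.

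Lef1, mainly an activator and itself a Wnt target in many tissues, had 10.3, 10.2, 6.13 and 2.11 FPKM in knockdown cells, against 8.90, 9.02, 4.28 and 2.40 FPKM in control cells. It was higher in knockdown cells at the first 3 times and lower at 225 min. The difference of 0.16 ± 0.08 (SE) did not pass (limma adjusted p = 0.14), whereas without 225 min it was 0.26 and passed (limma adjusted p = 0.023).

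Tcf7 (Tcf1) had 39.4, 41.7, 46.6 and 39.6 FPKM in knockdown cells, against 41.4, 41.4, 44.0 and 40.1 FPKM in control cells. Neither time nor arm moved it beyond its limits. Its difference between arms was 0.0015, with a 95% interval of -0.10 to 0.10.

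Tcf7l2 (Tcf4) had 6.23, 5.38, 2.47 and 1.58 FPKM in knockdown cells, against 6.03, 5.80, 2.17 and 1.66 FPKM in control cells. The sign of the difference changed from each time to the next. Its difference was 0.0080, with a 95% interval of -0.11 to 0.13.

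**Figure D2:**
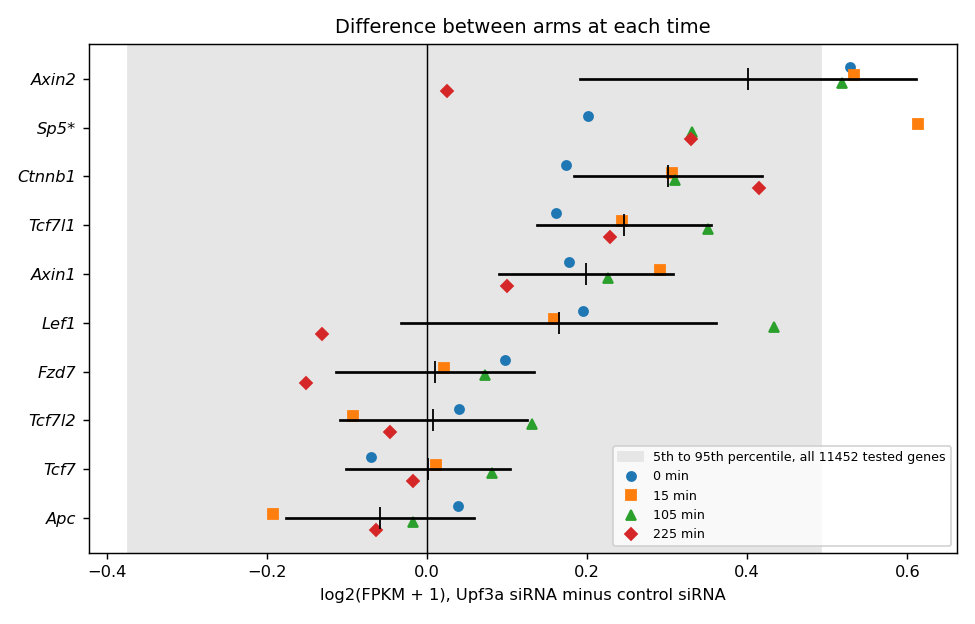
Difference in log2(FPKM + 1), Upf3a siRNA minus control siRNA (x axis), for each gene (rows), with a symbol per time, the limma estimate as a tick and its 95% interval as a black line; the grey band is the 5th to 95th percentile of all tested genes. Sp5 (asterisk) was not tested with the others. The Axin2 symbols sit at 0.52 to 0.53 until 105 min and at 0.025 at 225 min, and the Ctnnb1, Tcf7l1 and Axin1 symbols all lie above 0.

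The 4 calls in level rest on the comparison within each time. Without time as a factor none of the 9 members passed (limma adjusted p = 0.58 to 1.0 for these 4), since that fit counts the change after the block, a fall or a gain, as spread. By the stricter criterion of deposited limits apart at all 4 times, 0.375% of tested genes were called and no member was, and at 3 or more times 0.856% and no member. No member had limits apart between arms at any single time, where 0.803%, 1.64%, 1.33% and 1.89% of tested genes had them at 0, 15, 105 and 225 min. Time points of an arm may share a transfection, which the labels do not state, so p-values cover only the disagreement between times. The balance of directions over all tested genes moved with the scaling, from 2986 higher and 2557 lower on the deposited scale to 3836 and 1280 after scaling by ribosomal protein genes. The same 4 members were called higher under each of the scalings run, with Axin2 at 0.41 to 0.47, Ctnnb1 at 0.23 to 0.38, Tcf7l1 at 0.19 to 0.32 and Axin1 at 0.17 to 0.28.

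The members differed widely in how fast they were lost after the block. FPKM is a relative measure, so each slope is a loss or gain against the bulk of mRNA. The median slope over both arms was -0.40 log2 units per hour for the 9 members and 0.014 for all tested genes, of which 38.6% were called as falling and 42.7% as gaining, 81.3% in all. With 7 members called as falling, the lowest slopes on this scale were Fzd7 at -0.61 ± 0.04, Axin2 at -0.52 ± 0.07, Lef1 at -0.47 ± 0.03 and Axin1 at -0.46 ± 0.03 (SE; limma adjusted p between 2.45e-06 and 1.89e-04). Only 1.02% of tested genes had a lower slope than Fzd7, and 4.15% a lower one than Axin1. Tcf7l2 at -0.40 ± 0.05, Apc at -0.33 ± 0.02 and Tcf7l1 at -0.24 ± 0.03 were also called (limma adjusted p between 2.40e-06 and 6.67e-05). Read as a single rate, these slopes correspond to relative half-lives of 1.63 h for Fzd7, 1.91 h for Axin2 and 4.14 h for Tcf7l1. The loss did not follow a single rate: without 225 min the slopes were -0.80, -0.90 and -0.12 in that order. Axin2 had 25.7% left at 105 min in knockdown cells and 22.1% in control cells, less than a half-life of 1.91 h implies. The +1 in the logarithm understates the loss of low genes. With a pseudocount of 0.1 the slopes were -0.69 for Axin2, -0.65 for Fzd7, -0.51 for Tcf7l2 and -0.50 for Axin1. Without 225 min Tcf7l2 was at -0.64 and Axin1 at -0.33. The order of the members thus depends on the scale and the times used. The 7 falls were called under each of the alternatives that held the gene.

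In percent of the 0 min FPKM, Axin2 kept 25.7% at 105 min and 13.2% at 225 min in knockdown cells, against 22.1% and 19.4% in control cells. Most of the fall came before 105 min. From 105 to 225 min its deposited limits overlapped in both arms, with 51.3% of the 105 min level left in knockdown cells and 88.0% in control cells. Sp5, whose limits at 225 min overlapped those at 0 min in both arms, had 38.0% left at 225 min in knockdown cells and 20.2% in control cells. Axin1 fell later. It kept 66.6% in knockdown cells and 64.1% in control cells at 105 min, and 26.2% and 27.5% at 225 min, and its deposited limits were apart between 105 and 225 min and not between 15 and 105 min in either arm. Of the Axin transcripts, Axin2 made up 24.2% of their summed FPKM at 0 min in knockdown cells and 19.3% in control cells, but 11.0% and 7.60% at 105 min.

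Fzd7 was at 15 min still at 101% of its start in knockdown cells and 107% in control cells, and had 38.4% and 39.1% left at 105 min. Tcf7l2 had 39.7% left at 105 min in knockdown cells and 35.9% in control cells, with deposited limits apart from those at 15 min in both arms. Lef1 had 59.3% left at 105 min in knockdown cells and 48.1% in control cells, but 20.4% and 27.0% at 225 min. The 225 min limits lay below the 0 min limits for the same 7 members in both arms, where 19.8% of tested genes did so in knockdown cells and 18.0% in control cells.

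Ctnnb1 and Tcf7 were the exceptions. Ctnnb1 reached 162% of its 0 min FPKM at 225 min in knockdown cells and 137% in control cells, with a slope of 0.17 ± 0.02 per hour (SE; limma adjusted p = 5.18e-05), but of -0.028 after quantile normalization and -0.13 when scaled to ribosomal protein genes. That scaling moved the median slope of all tested genes to -0.23, with 48 gaining and 10691 falling, so that Ctnnb1 still lay above the median there. Tcf7 held 100.4% of its start at 225 min in knockdown cells and 96.8% in control cells. Its slope of -0.0049 did not pass (limma adjusted p = 0.84), but was -0.065 and called after quantile normalization, -0.29 and called when scaled to ribosomal protein genes, and 0.088 and called without 225 min.

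**Figure D3:**
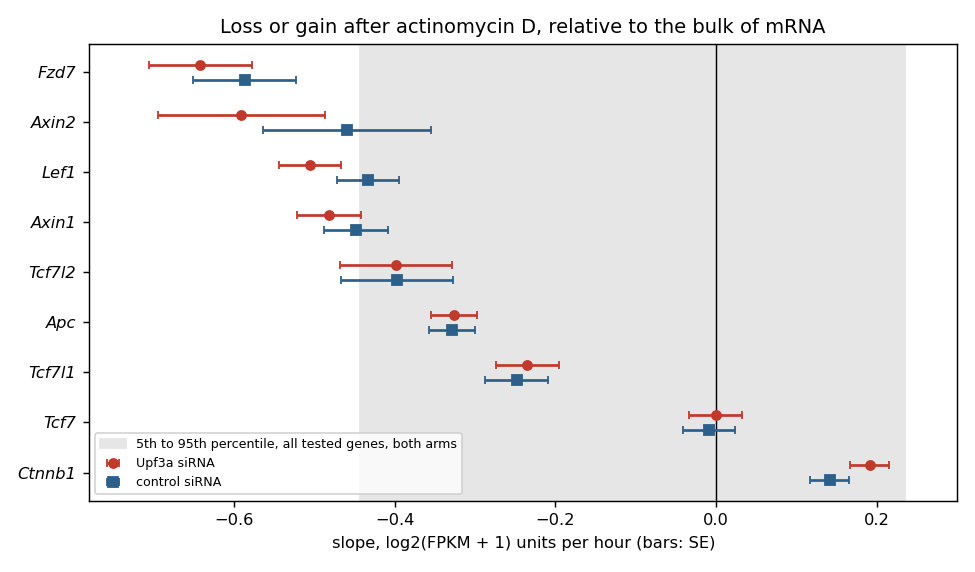
Slope over time of log2(FPKM + 1) per hour (x axis) for the 9 tested genes (rows) in the Upf3a siRNA arm (circles) and the control siRNA arm (squares), with SE bars and a grey band for the 5th to 95th percentile of all tested genes. Slopes ran from -0.64 for Fzd7 in the Upf3a siRNA arm to 0.19 for Ctnnb1 in the same arm, and the bars of the arms overlapped for the 7 genes that fell.

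The design's own question was whether the rate of loss differed between arms. None of the 9 members passed that test, for which 1 of all tested genes was called, 0.00873%, and 762 (6.65%) had an unadjusted p below 0.05. Axin2 had the largest difference among members, with slopes of -0.59 per hour in knockdown cells and -0.46 in control cells. The difference was -0.13 ± 0.04 (SE; limma unadjusted p = 0.010, adjusted p = 0.67), with a 95% interval of -0.22 to -0.044. Without 225 min it was -0.0074, so the estimate rests on the last time point, at which the control level was 1.13 FPKM. Lef1 had slopes of -0.50 and -0.43 in the knockdown and control arms, and its difference of -0.071 became 0.15 without 225 min. For the other members the differences were -0.055 for Fzd7, -0.033 for Axin1, -0.0013 for Tcf7l2, 0.0024 for Apc, 0.0081 for Tcf7, 0.013 for Tcf7l1 and 0.050 for Ctnnb1. Their 95% intervals ran together from -0.13 to 0.12 log2 units per hour, so that shifts of that size could not be told from none.

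Since they decayed at such different rates, the mix of Tcf/Lef mRNAs changed over time. FPKM is scaled by length, so levels of the 4 genes can be set side by side. At 0 min Tcf7 made up 38.5% of their summed FPKM in knockdown cells and 42.3% in control cells, and Tcf7l1 45.4% and 42.4%. At 225 min Tcf7 made up 58.2% in knockdown cells and 61.5% in control cells, and Tcf7l1 36.4% and 32.2%. Lef1 went down to 3.10% in knockdown cells and 3.69% in control cells at 225 min, against 10.1% and 9.10% at 0 min. Tcf7l2 stood at 6.08% and 6.17% at 0 min and at 2.32% and 2.55% at 225 min, knockdown before control. The Tcf7 share was lower in knockdown cells than in control cells at each of the 4 times, and the Tcf7l1 share higher, which was not tested.

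**Figure D4:**
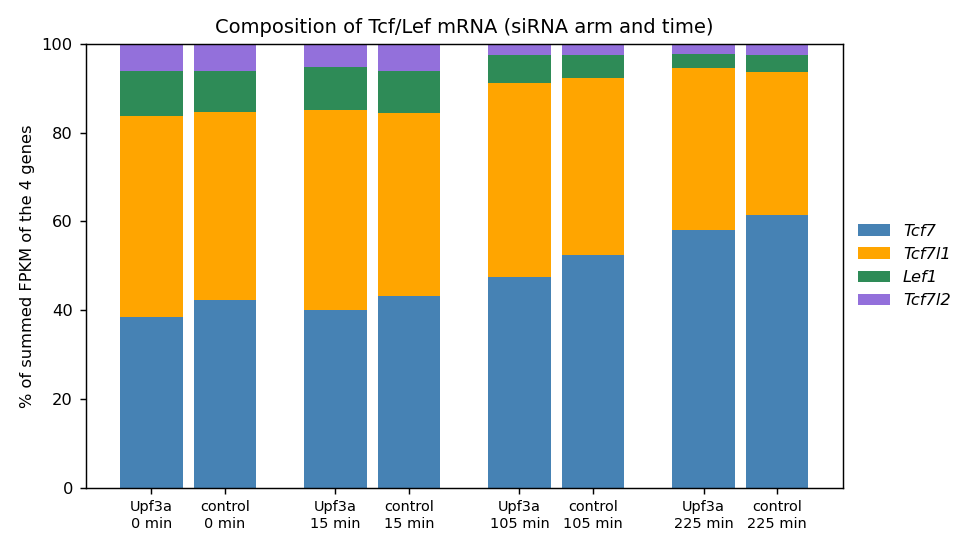
Share of each Tcf/Lef gene in the summed FPKM of the 4 genes (y axis, %), for the Upf3a siRNA arm and the control siRNA arm side by side at each time (x axis). The Tcf7 share grows to 58.2% in the Upf3a siRNA arm and 61.5% in the control siRNA arm at 225 min, and the shares of Lef1 and Tcf7l2 shrink.

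The rest of the pathway was read in 6 lists, where 7 genes stand in more than one. These lists were chosen with earlier results of these data known, so their counts are descriptions and no test of a list. Of 19 Wnt ligand genes 6 were tested, and the other 13 had a mean FPKM under 1. Of these, 4 were called higher in knockdown cells and 1 lower, against 26.1% and 22.3% of all tested genes, with a list median of 0.31 against 0.0046. Wnt8a, a ligand of the primitive streak, averaged 23.7 ± 1.24 FPKM in knockdown cells and 13.8 ± 0.21 FPKM in control cells (SD, n = 4 time points), a log2 difference of 0.74 (limma adjusted p = 7.7e-05). Wnt3, which is needed for the streak to form, was at 0.32 and Wnt5a, a ligand known for beta-catenin-independent signalling, at 0.30. Wnt7a ran the other way, with 0.787 ± 0.398 FPKM in knockdown cells and 1.40 ± 0.461 FPKM in control cells. Its knockdown mean lay under the filter of 1, so it was tested only through its control level.

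Of 20 tested genes of Wnt secretion, receptors and co-receptors, 6 were called higher and 5 lower, shares near the 26.1% higher and 22.3% lower over all tested genes. Lrp6, the co-receptor, averaged 14.3 ± 7.70 FPKM in knockdown cells and 8.14 ± 4.48 FPKM in control cells, with a log2 difference of 0.72 (limma adjusted p = 8.1e-05). The receptors Fzd4 and Fzd5 were lower, at -0.56 and -0.38, and the agonist Rspo1 was higher, at 0.45. Of 8 tested secreted and membrane inhibitors 3 were higher and 3 lower, against 26.1% and 22.3% of all tested genes. The counts were 3 and 1 after ribosomal scaling, and 2 and 1 without 15 min. Frzb was at 0.41, Cer1, which also blocks Nodal, at 0.34, and the Dkk receptor Kremen1 at -0.30. Frzb averaged 1.60 FPKM in knockdown cells and 0.956 FPKM in control cells, so it passed the filter of 1 only through its knockdown level. Sfrp2 was at -0.14, and did not pass when scaled to ribosomal protein genes (-0.064). It also did not pass without 0 min, without 15 min or without 225 min (limma adjusted p between 0.058 and 0.098).

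Of 24 tested genes of cytoplasmic transduction and the destruction complex, 8 were higher and 3 lower, against 26.1% and 22.3% of all tested genes, with a median of -0.0025. When scaled to ribosomal protein genes 10 were higher and none lower, and after quantile normalization 7 and 6. Csnk1a1, the kinase that primes beta-catenin, averaged 86.3 ± 10.1 FPKM in knockdown cells and 58.2 ± 12.7 FPKM in control cells, at 0.58 (limma adjusted p = 5.6e-04). The Dishevelled genes, which relay the receptor signal, did not move together: Dvl3 was at 0.53, but Dvl2 at -0.25, which did not pass when scaled to ribosomal protein genes (-0.17). Gsk3a, a kinase of the complex, was at 0.33.

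Of 16 tested nuclear co-factors and repressors, 6 were higher and none lower, against 26.1% and 22.3% of all tested genes, with a median of 0.033. The co-repressor Ctbp1 averaged 74.5 ± 17.6 FPKM in knockdown cells and 51.2 ± 10.2 FPKM in control cells, at 0.53. Its paralog Ctbp2 was at 0.44, the chromatin remodeller Chd8 at 0.33 and the Groucho family repressor Tle3 at 0.30. These 4 are known as repressors of transcription or, for Chd8, of beta-catenin targets, but they were named for their moderated t. Tle4 at 0.27 and Cdc73 at 0.19 were also called. Others of the list, among them Tle1 at -0.092, Aes at 0.043 and Hdac1 at -0.00081, did not pass. Repressors of the list thus did not move as a group.

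Of 14 tested other Wnt target genes, a list likewise chosen with earlier results known, 8 were higher and none lower. Over all tested genes 26.1% were higher and 22.3% lower, and the list median was 0.24. Under each of the 3 scalings run, 9 genes of the list were higher and none lower. Without 0 min, without 105 min, without a filter or with a pseudocount of 5 the counts were 7 and none. Without a time factor 2 of these targets, 1 ligand and 1 nuclear gene were called higher, and no gene of the remaining pathway lists was called. T (brachyury) was at 0.87, cyclin D1 gene Ccnd1 at 0.77, the growth factor Fgf8 at 0.70 with 45.6 ± 11.5 FPKM in knockdown cells and 27.4 ± 5.64 FPKM in control cells, and the homeobox gene Cdx1 at 0.37 with 1.84 ± 0.423 FPKM and 1.21 ± 0.353 FPKM. The P19 markers moved the same way, at a median of 0.53, and several of these targets also answer to other signals, whose part was not tested. No gene of the 6 lists passed the test for a different rate of loss. The 3 largest differences there, of either sign, were -0.16 for the transcription factor gene Myc, -0.14 for Fzd9 and 0.13 for Fbxw11, a ubiquitin ligase subunit that recognises beta-catenin.

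**Figure D5:**
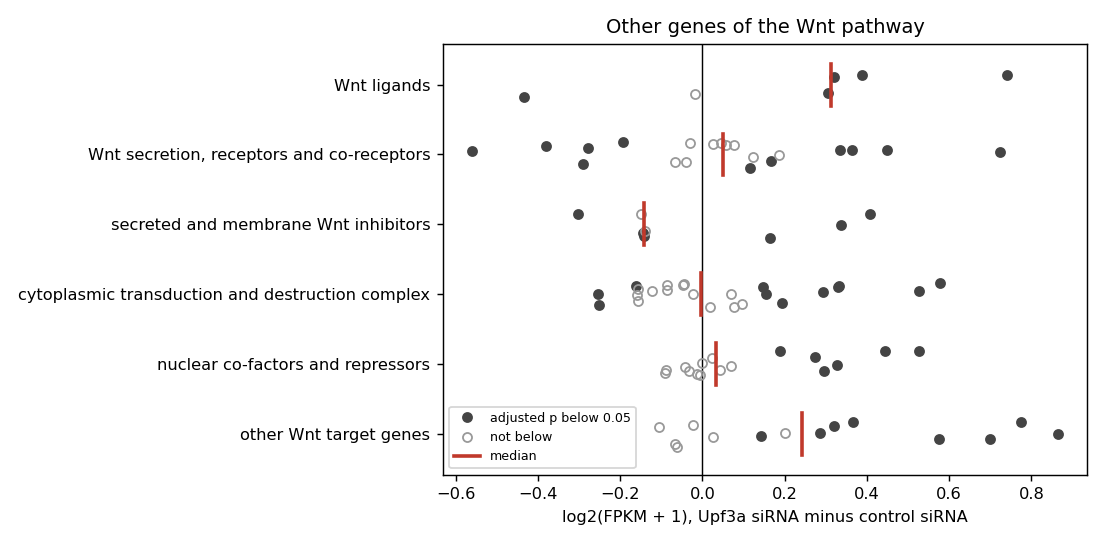
Difference in log2(FPKM + 1), Upf3a siRNA minus control siRNA (x axis), for the tested genes of 6 pathway lists (rows), filled where the limma adjusted p was below 0.05, with the list median as a red line. The other Wnt targets reach 0.87 with no filled symbol below 0, while receptors and cytoplasmic genes spread to both sides.

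Over the 8 conditions, the genes of mean FPKM 5 or more whose log2(FPKM + 1) profile was most like that of Axin2 were Tnrc6a, with a Pearson r of 0.998, Klf3 with 0.996, Myc with 0.995, Dync1li2 with 0.995 and Mll1 with 0.9945, among 7536 compared. All 5 fell over time and had higher levels in knockdown cells at 0 min, as Axin2 did. Klf3 had 9.98, 9.33, 2.85 and 1.48 FPKM in knockdown cells, against 6.89, 6.49, 1.88 and 1.76 FPKM in control cells, so that its arms also came together at 225 min. Among members the r with Axin2 was 0.948 for Fzd7, 0.934 for Lef1, 0.912 for Apc, 0.881 for Axin1 and 0.831 for Tcf7l1. It was -0.204 for Tcf7 and -0.668 for Ctnnb1. The points share the same 8 conditions and a common fall, so these values are descriptions.

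On mm10, the loci in the deposited table (counted from 1) place Axin2 on chromosome 11 at 108920349 to 108950781, Sp5 on chromosome 2 at 70474923 to 70477726, Axin1 on chromosome 17 at 26138686 to 26195811 and Ctnnb1 on chromosome 9 at 120933400 to 120960507. Fzd7 lies on chromosome 1 at 59482147 to 59486955, Lef1 on chromosome 3 at 131110471 to 131223331, Tcf7 on chromosome 11 at 52252604 to 52282571, Tcf7l1 on chromosome 6 at 72626380 to 72788956, Tcf7l2 on chromosome 19 at 55741810 to 55933655 and Apc on chromosome 18 at 34207775 to 34322190. In GENCODE vM21 Tcf7 and Tcf7l1 are on the minus strand and the others on the plus strand. Antisense genes overlap exons of Axin2 (Gm11670), Lef1 (Gm43352) and Tcf7l1 (Gm15401). The table gives Apc and Gm10548, and likewise Tcf7l1 and Gm15401, one shared locus each, so reads of these may be split between rows.

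The coding transcripts also differed in features that can bear on stability. The word ATTTA, the core of AU-rich elements, occurred in the 3' UTR of 6 members, 4 times in Apc, 3 times each in Axin2, Fzd7, Lef1 and Tcf7l2, and 2 times in Sp5, while those of Axin1, Tcf7, Tcf7l1 and Ctnnb1 held none. Of all tested genes with a coding transcript 65.5% held it. The members without it were the exceptions Ctnnb1 and Tcf7, and also Axin1 and Tcf7l1, which fell at -0.46 and -0.24 log2 units per hour. The 3' UTR used for Tcf7l1 was only 88 bases long, against a median of 955.5 over tested genes, so its lack of the word says little. Whether the word bears on the loss of these mRNAs was not tested. The longer word TTATTTATT was in none of the members and in 7.1% of tested genes. Transcripts annotated as targets of nonsense-mediated decay numbered 4 for Ctnnb1 and 2 for Apc, and 0 for the other members, against 1 or more for 29.7% of tested genes. The table sums all transcripts of a gene, so these isoforms cannot be seen apart.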

How the data were processed

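RNA of P19 cells in 2 siRNA arms at 4 times after actinomycin D was sequenced after Trizol extraction and standard Illumina library preparation, per the labels' protocols. Reads were processed with TopHat2 and Cufflinks on mm10, per the submitters' processing notes; versions, annotation and strand are not given in the sources used here. The authors deposited 1 FPKM per gene and condition with a lower and upper limit of unstated level, per the file headers. How the 2 cultures of a condition were combined, and whether conditions were scaled to each other, is not stated. FPKM is not a count, so depth and counting intervals are unknown.

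Conditions were matched to columns by arm and time. With R 4.3.3 and limma 3.58.1, log2(FPKM + 1) was fitted over 11452 genes, those whose FPKM averaged at least 1, with eBayes without trend, with Benjamini-Hochberg adjustment over all of them. The level difference used time as a factor plus arm, with the difference in rate as arm by hours added, and the common slope used hours plus arm. Slopes per arm came from a fit with an intercept and a slope for each. Alternatives were the pseudocount, the filter, 3 scalings, limma with trend and robust, leaving out each time, and no time factor. The fits were tested on simulated data. Tables were read with Python 3.11.15.

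The 10 members and all lists were chosen with earlier results of these data known. The lists are Wnt ligands; secretion, receptors and co-receptors; secreted and membrane inhibitors; cytoplasmic transduction and destruction complex; nuclear co-factors and repressors; other Wnt targets; and P19, fibroblast, neural and endoderm markers. Genes named from the pathway lists are up to 4 per list by moderated t in level and up to 2 in rate of loss, of which the text names a part. Gene features came from GENCODE vM21 (96.1% of tested genes had a coding transcript there; the longest coding transcript was used) and promoters from RefSeq on GRCm38.p6.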

Additional observations from a re-analysis of the deposited data

How the results depend on the processing

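The count of genes called for level was 5543, and 487 without a time factor, where 0 of the 4 member calls remained. For the rate of loss, 1 gene was called as fitted, 6 with trend and robust, 0 without a filter and 2 to 22 when a time was left out, and no member was called under any of these. Deposited limits apart at 3 or more of 4 times were found for 98 genes, against 43 at all 4. The following values changed sign. In level they were, for Fzd7, -0.022 after quantile normalization and -0.019 to 0.064 when a time was left out, for Tcf7 -0.064 and -0.025 to 0.025 in the same order, for Tcf7l2 -0.033 to 0.042 when a time was left out, and for Apc 0.018 when scaled to ribosomal protein genes. In the rate difference, quantile normalization gave -0.0019 for Tcf7, -0.013 for Tcf7l1 and 0.017 for Tcf7l2, ribosomal scaling gave -0.030 for Apc, -0.028 for Tcf7 and -0.025 for Tcf7l1, and a pseudocount of 5 gave 0.00098 for Tcf7l2. Leaving out a time gave -0.027 to 0.034 for Apc, -0.055 to 0.0032 for Axin1, -0.067 to 0.0020 for Fzd7, -0.094 to 0.15 for Lef1, -0.010 to 0.073 for Tcf7, -0.0075 to 0.096 for Tcf7l1 and -0.024 to 0.086 for Tcf7l2. In the common slope, Tcf7 was 0.0096 with median-of-ratios scaling and -0.021 to 0.088 when a time was left out, and Ctnnb1 was -0.028 after quantile normalization and -0.13 with ribosomal scaling. The cause was not tested. Of the member values under alternatives, 291 kept direction and side of the threshold, 5 lost a call, 3 gained one and 28 changed sign. With a mean FPKM of 5 as the filter, Axin2, Tcf7l2 and Sp5 gave no value.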

Other observations

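After the block, 38.6% of all tested genes were called as falling and 42.7% as gaining relative to the bulk of mRNA, and the pathway lists differed in their counts. Of the 20 tested genes of Wnt secretion, receptors and co-receptors, 15 fell and 5 gained. Fzd10, a receptor gene, had the lowest slope of the list at -0.77 log2 units per hour, followed among the named genes by Lrp6 at -0.49, Fzd5 at -0.49 and Fzd4 at -0.34. Of 6 tested Wnt ligands 5 fell, among them Wnt5a at -0.53, while Wnt8a did not pass at -0.015 (limma adjusted p = 0.39). Of 16 tested nuclear co-factors 11 fell and 5 gained, with Crebbp at -0.38 and Ctbp1 at 0.17, which became -0.12 when scaled to ribosomal protein genes. Of 14 other Wnt targets 10 fell and 1 gained. Myc had a slope of -0.71, while T, at 0.036, and Ccnd1, at 0.039, did not pass. Of 24 tested cytoplasmic genes 16 fell and 5 gained, with a median of -0.076. Of 8 tested secreted and membrane inhibitors 3 fell and 2 gained, with a median of 0.011. These counts depend on the scale: with ribosomal scaling, under which 10691 of 11452 tested genes fell and 48 gained, no gene of the 6 lists gained, and 18 of 20 receptor, 15 of 16 nuclear, 14 of 14 target, 24 of 24 cytoplasmic, 8 of 8 inhibitor and 6 of 6 ligand genes fell.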
